A study of Mus musculus with 6 samples.

Results

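Cycling basal cells of the mouse submandibular gland were taken from a droplet single-cell library of sorted basal epithelium. A cell barcode counted as one when it held at least 500 genes, at most 20% mitochondrial UMIs (unique molecular identifiers, each a counted RNA molecule), at least 1 UMI of Krt5 and at least 8 UMIs in all of Mki67, Top2a, Cdk1, Ube2c and Birc5. The rule found 85 barcodes among 4418 past the filters on genes and mitochondrial UMIs in the basal sort, and among 11140 past them in the 3 libraries of the series (16640 barcodes in all). The members were thus chosen by measured UMIs of 6 genes, with Krt5 among them. They were set against 3126 barcodes of the same library with at least 2 UMIs of Krt5 and none of the 5 genes, called comparison barcodes here. Another 345 Krt5 barcodes with 1 to 7 UMIs of the 5 genes, and 264 with none of them and exactly 1 Krt5 UMI, were in neither class.

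The series holds 3 libraries, each pooled from 3 wild-type female C57BL/6J mice that carried 1 hashtag antibody each. The irradiated library is the Epcam-positive epithelium collected 90 days after 30 Gy to the left submandibular gland. The untreated libraries are the Epcam-positive epithelium and the basal sort (Epcam-positive, Cd49f-high). The cycling cells come from the basal sort. All 3 libraries carry an age of 8 to 10 weeks, which for irradiated mice cannot be the age at collection. Cells positive for Cd3, Cd16/Cd32, Cd31 or Cd45 and cells that took up DAPI had been sorted out. Each group is 1 library, so library and group cannot be told apart, and the mouse is the replicate.

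Basal cells line the ducts and embrace the secretory end pieces of salivary glands, where those with contractile proteins are called myoepithelial, and Krt5 and Krt14 form their keratin filaments. A dividing cell copies its DNA in S phase under genes that E2F factors switch on, and then makes the cyclins, kinases, kinetochore proteins and motors of G2 phase and mitosis. The second wave is held down in resting cells by the DREAM complex and raised by the MYB-MuvB and FOXM1 proteins, which act at a promoter element called the CHR, often beside CCAAT boxes bound by NF-Y.

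These elements can be read in the promoters of genes on which the results turn. The 100 bases before the start of 6 genes are shown 5′ to 3′ on the gene's strand (RefSeq, build GRCm38.p6). Cdk1 and Ube2c belong to the rule, Cdc20 is a mitotic gene outside it, Mcm6 is an S-phase gene chosen after its values were seen, E2f7 is a regulator, and Cdkn2c an inhibitor of G1 kinases. Capitals mark, on either strand, the core of the CHR spelled TTTGAA, the box of NF-Y spelled CCAAT, and the letters of an E2F site in a form spelled TTCCCGC and a form that reads TTGGCGC.
Cdk1: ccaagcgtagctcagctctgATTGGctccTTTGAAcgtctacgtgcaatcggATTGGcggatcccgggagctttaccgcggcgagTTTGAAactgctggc
Ube2c: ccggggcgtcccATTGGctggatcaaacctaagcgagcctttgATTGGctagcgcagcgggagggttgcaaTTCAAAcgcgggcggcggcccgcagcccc
Cdc20: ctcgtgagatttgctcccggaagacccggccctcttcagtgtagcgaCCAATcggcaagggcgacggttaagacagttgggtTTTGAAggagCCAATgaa
Mcm6: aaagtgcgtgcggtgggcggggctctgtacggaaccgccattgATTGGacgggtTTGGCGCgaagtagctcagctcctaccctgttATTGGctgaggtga
E2f7: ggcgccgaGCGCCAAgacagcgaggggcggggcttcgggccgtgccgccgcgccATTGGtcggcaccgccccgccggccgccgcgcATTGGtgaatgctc
Cdkn2c: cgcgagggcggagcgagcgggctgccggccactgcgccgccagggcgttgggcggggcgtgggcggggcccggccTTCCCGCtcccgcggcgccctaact
These stretches lie at chr10:69352913-69353012 (minus strand), chr2:164769829-164769928 (plus), chr4:118437344-118437443 (minus), chr1:128359706-128359805 (minus), chr10:110745339-110745438 (plus) and chr4:109666757-109666856 (minus). The Cdk1 stretch holds the CHR letters from positions −71 and −15 relative to the start, and Cdc20 from −18. In Ube2c they stand on the other strand, from −29. The Mcm6 stretch holds TTGGCGC from −46, E2f7 holds it on the other strand from −92, and Cdkn2c holds TTCCCGC from −25.

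Over 300 bases (250 before the start, 50 after it), the CHR letters stood in 18.1% of the 27025 promoters listed, one per gene symbol. They stood in 23 of the 31 listed promoters of spindle and cytokinesis genes, in 15 of 29 of kinetochore genes, and in 7 of 13 of mitotic cyclin and kinase genes. Among replication genes they stood in 5 of 39 promoters, and among basal keratin and adhesion genes in 1 of 12. The E2F letters were counted in the same windows. TTCCCGC was in 17 of 39 replication promoters and in 0 of 31 spindle promoters, against 4.66% of all promoters, and TTGGCGC was in 8 of 39 and in 4 of 31, against 2.54%. CCAAT stood in 37.9% of all promoters, in 25 of 39 replication promoters and in 20 of 31 spindle promoters. It can share letters with TTGGCGC. These are counts of letters in a window and not of bound sites.

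The 85 members came from all 3 mice. By hashtag, mouse 1 gave 36 of its 1159 Krt5 barcodes (3.11%, exact 95% interval 2.19 to 4.27), mouse 2 gave 10 of 683 (1.46%, 0.704 to 2.68) and mouse 3 gave 31 of 944 (3.28%, 2.24 to 4.63). The share was lowest in mouse 2, and its interval overlapped those of the others. Averaged over mice it was 2.62%, and 2.23% of all 3820 Krt5 barcodes (1.78 to 2.74). Among 598 Krt5-negative barcodes of the same library none passed the gate, which allows a share of up to 0.502% (3 counts of the total). Any UMI of the 5 genes was found in 11.3% of Krt5 barcodes, at a median of 13495 UMIs in all, and in 2.84% of Krt5-negative barcodes, at 5639 UMIs. Intervals cover counting error only.

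The genes of the rule describe the members and were not tested. Over the 85 members Krt5, the keratin that defines the compartment, had 2 UMIs at the lowest, 14 at the median and 37 at the highest. Mki67, which coats mitotic chromosomes, had 0, 4 and 20 UMIs, and was missing in 2 members. Top2a, which untangles DNA, had 0, 8 and 31 UMIs and was missing in 7. Cdk1, the mitotic kinase, ran from 0 through 8 to 31 and was missing in 4. Ube2c, the ubiquitin enzyme of the anaphase-promoting complex, spread most widely, at 0, 5 and 86 UMIs, and was missing in 10. Birc5, a subunit of the chromosomal passenger complex, was found in every member at 1, 6 and 24 UMIs. The sum of the 5 ran from 8 to 155 UMIs, with a median of 37, so most members lay far inside the threshold. Just inside it, 3 barcodes with 8 or 9 UMIs held medians of 79 S-phase and 66 mitotic UMIs. Just outside it, 5 barcodes with 6 or 7 held medians of 75 and 63 UMIs, so the threshold does not fall in a gap of these other genes.

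The members carried the genes of basal epithelium. Krt14, the partner of Krt5, had 3087, 2745 and 3159 CPM (UMIs scaled so that each mouse's sum for a class is 1e6) in cycling barcodes of mice 1, 2 and 3, against 4469, 3551 and 4605 in comparison barcodes. Epcam, the surface protein of the sort, had 1557, 2156 and 1881 CPM in cycling barcodes, against 1496, 1497 and 1685. Itga6, which encodes Cd49f, had 151, 123 and 164 CPM in cycling barcodes and 213, 185 and 186 in comparison barcodes. The markers of immune cells summed to 0.949 to 4.72 CPM per mouse in cycling barcodes and 4.59 to 6.05 in comparison barcodes, with Ptprc, Cd3e and Cd3d among 7 of 10 at 0 in cycling barcodes. Of 6 fibroblast markers, Col1a1, Col1a2, Col3a1, Lum and Pdgfra were at 0 in cycling barcodes, while Dcn had 3457, 3905 and 2916 CPM there, against 3123, 2121 and 2499 in comparison barcodes. Sums were 0 to 7.59 CPM in cycling barcodes against 14.4 to 21.3 for intercalated duct, 9.43 to 60 against 34.0 to 34.6 for acinar, and 42.7 to 118 against 138 to 540 for granular duct markers. Ionocyte markers summed to 1.33 to 4.75 CPM in cycling barcodes and 7.84 to 10.4 in comparison barcodes, and endothelial markers to 4.75 to 13.3 and 3.91 to 15.2. Luminal duct markers were abundant in both classes, at 4616 to 4965 CPM in cycling and 5388 to 5831 in comparison barcodes, with Krt8 at 1089, 1146 and 1209 CPM in cycling barcodes and 1099, 861 and 1016 in comparison barcodes. Pericyte markers summed to 2.67 to 4.72 CPM in cycling and 2.49 to 20.9 in comparison barcodes. Schwann cell markers summed to 9.43 to 20 and 28.1 to 34.8, and the haemoglobin genes to 0 and 0.214 to 0.675. Values of 0 say little here, since cycling sums held 212016 to 1053334 UMIs and comparison sums 7412805 to 14039212. Comparison sums held 3 UMIs of Col1a1, 36 of Col1a2, 4 of Col3a1, 4 of Cd3e and 0 of Cd3d. For these genes 0 UMIs in cycling barcodes cannot be told from the comparison level.

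Cycling barcodes held more RNA than comparison barcodes. The median was 26326 UMIs in cycling barcodes (7984 to 50904) and 13493 in comparison barcodes (992 to 94533), with 4386 and 2943 genes. By mouse, the median in cycling barcodes was 2.02, 1.76 and 1.68 times that in comparison barcodes, on average 1.82 ± 0.18 (SD, n = 3 mice). A rule on UMIs favours deep barcodes, so the ratio is a description. With barcodes thinned to 5000 UMIs (all 85 cycling and 3035 of 3126 comparison barcodes, the others being shallower), the median was 1739 genes in cycling and 1623 in comparison barcodes. Another readout, the hashtag antibody on the cell surface, ran the same way in each mouse. The median of a mouse's own hashtag was 489, 404 and 433 UMIs per cycling barcode, against 247, 282.5 and 280.5 per comparison barcode, or 1.65 ± 0.29 times as many (SD, n = 3). Hashtag doublets, which hold cells of different mice, were 7 of 85 cycling barcodes (8.24%, exact interval 3.38 to 16.2) and 168 of 3126 comparison barcodes (5.37%, 4.61 to 6.22), so the intervals overlapped. The median Scrublet doublet score was 0.0561 in cycling and 0.0642 in comparison barcodes. No hashtag call was made for 1 of 85 cycling and 687 of 3126 comparison barcodes, so the classes differed in how many could be called. The doublet shares count uncalled barcodes in their totals. Doublets of hashtags and barcodes with no hashtag call were left out of all values by mouse. The hashtag ratio and the cycling shares by mouse thus rest on called barcodes only. No member shared its barcode sequence with a barcode of another library.

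Members differed in their UMIs of S-phase and mitotic genes. S-phase genes (48 genes of replication and its licensing) took a median of 57 UMIs per member (5 to 203), against 7 per comparison barcode. Mitotic genes (the cyclin and kinase, kinetochore and spindle lists, without the abundant Stmn1, Tubb5, Tuba1b and Tubb4b) took a median of 184 UMIs (59 to 569), against 10. In 79 of 85 members the mitotic share of UMIs was above the highest comparison barcode. The S-phase share was above the 99th percentile of comparison barcodes in 47 members, and above the highest in 6. The rule favours this contrast, since members needed UMIs of genes expressed with the mitotic ones, and comparison barcodes held none of the 5 genes. It is therefore a description. Across the 85 members the shares ran in opposite directions, with Spearman's rho of −0.583 and Pearson's r of −0.516. The points share a library and a gate, and each share is a part of the same total.

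**Figure D1:**
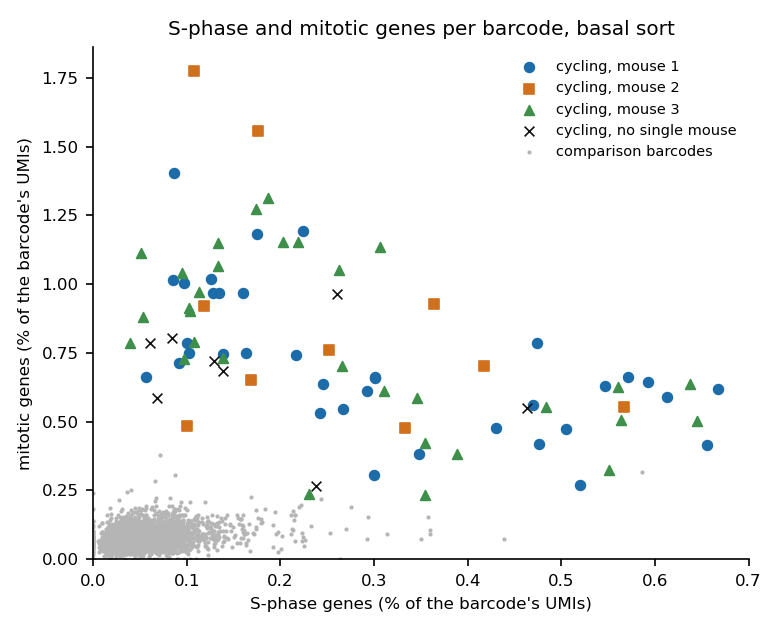
Share of UMIs (percent) taken by S-phase genes (x axis) and by mitotic genes (y axis, without 4 tubulin and stathmin genes) in each barcode of the basal sort, with cycling barcodes coloured by mouse, crosses for those with no single hashtag, and comparison barcodes in grey. Members spread from few S-phase and many mitotic UMIs at the upper left to many S-phase and fewer mitotic UMIs at the lower right, in all 3 mice, and 79 of 85 lie above every comparison barcode on the y axis.

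When the members were divided at their median S-phase share, the 43 with the higher share held medians of 0.388% S-phase and 0.560% mitotic UMIs, and the 42 with the lower share 0.115% and 0.916%. Cdc20, which activates the anaphase-promoting complex, had a median of 1 UMI in the first set and 10 in the second, and Ccnb1, the mitotic cyclin B1, had 1 and 3. Some genes of G2 phase and mitosis had no UMI in part of the members. No UMI of Ccnb1 was held by 20 of 85, none of Cdc20 by 16, and none of Plk1, the polo kinase of spindle assembly, by 56. Ccnb1 had a median of 2 UMIs per member and Plk1 4 at the highest, so a count of 0 does not show absence. Without the 4 tubulin and stathmin genes, 72 of 85 members held more mitotic than S-phase UMIs (83.3%, 90.0% and 80.6% of those of mice 1, 2 and 3), and with them all 85 did. The rule and the unequal lists bear on this count. Comparison barcodes too held more mitotic than S-phase UMIs at the median (10 against 7), so the count assigns no phase. S-phase genes reached the members' median share in 15 of 3126 comparison barcodes (0.480%, exact interval 0.269 to 0.790), with a median of 45 S-phase and 14 mitotic UMIs and none of the 5 genes of the rule. The lowest of the 15 had 3 S-phase UMIs, so a share can rest on few counts, and 1 held 5 or more UMIs of myoepithelial genes. The 15 included 7 barcodes of mouse 1 and 3 each of mice 2 and 3.

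**Figure D2:**
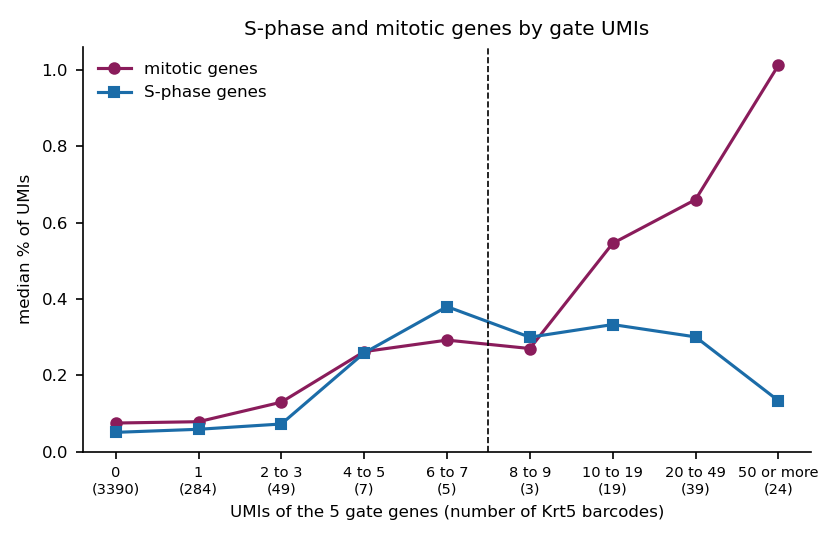
Median share of UMIs (percent) of S-phase genes (blue squares) and mitotic genes (purple circles) in Krt5 barcodes of the basal sort, binned by their UMIs of the 5 genes of the rule (x axis, number of barcodes in brackets), with the threshold of 8 as a dashed line. The S-phase share was 0.38% at 6 to 7 UMIs and 0.134% at 50 or more, while the mitotic share was 0.292% and 1.01%; bins of 4 to 9 UMIs hold 3 to 7 barcodes each.

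UMIs were then summed per mouse and class, and edgeR's quasi-likelihood test compared the classes within mice over 10538 genes, with Benjamini-Hochberg adjustment and a threshold of 0.05. The 6 genes of the rule were not tested. In cycling barcodes 1410 genes were higher, or 13.4% of those tested, and 1053 lower, or 9.99%, and the median log2 fold change of all genes tested was −0.03. The 3 cycling sums did not overlap the 3 comparison sums in 19.7% of genes on the higher and 16.8% on the lower side. Genes of division are expressed together with those of the rule, so their direction is not independent of it, and their values show how much and with what spread. The cycling sum of mouse 2 held only 212016 UMIs, where 1 UMI is 4.72 CPM, against 1053334 in mouse 1 and 749990 in mouse 3. Comparison sums held 7412805 to 14039212 UMIs.

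Of 45 replication genes tested, 44 rose and Ccne2 did not pass, with a median log2 fold change of 2.30. Tyms, which makes thymidylate, had 133, 175 and 147 CPM in cycling barcodes of mice 1, 2 and 3, against 11.5, 11.2 and 8.54 in comparison barcodes (log2 fold change 3.79 ± 0.17, approximate SE). Rrm2, the regulated subunit of ribonucleotide reductase, had 96.8, 47.2 and 69.3 CPM in cycling barcodes, against 4.70, 3.51 and 3.17 (4.26 ± 0.25). Cells that replicate need both enzymes for their deoxynucleotides. Tk1, thymidine kinase, and Cdc45, a part of the replicative helicase, had the largest increases of the list by the naming rule, of 5.25 ± 0.35 and 4.80 ± 0.39 on the log2 scale. Mcm6, another subunit of that helicase, had 97.8, 94.3 and 88.0 CPM in cycling barcodes, against 21.6, 23.1 and 21.7 (2.06 ± 0.18). Pcna, the sliding clamp of the polymerases, rose less, with 233, 249.98 and 247 CPM in cycling barcodes against 88.7, 102 and 94.0 (1.33 ± 0.13). All 6 of these genes had UMIs in every comparison sum, and the classes overlapped in none of them.

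By the naming rule the largest increases of all genes were of Aurkb, Pimreg, Ccnb1, Hmmr, Nusap1, Pbk, Ccna2, Ska1, Racgap1 and Ccnb2, which act in or around mitosis. Many mitotic genes were close to absent from comparison barcodes, and for these the ± values can understate the counting error. Of 20 mitotic cyclin, kinase and ubiquitin ligase genes 19 rose (median 4.09), Pttg1 not passing, of 33 kinetochore and checkpoint genes 32 rose (5.25), Cenpl not passing, and all 35 spindle and cytokinesis genes rose (5.71). Ccnb1 had 120, 132 and 132 CPM in cycling barcodes, against 0.214, 0.135 and 0 in comparison barcodes (9.75 ± 0.34, adjusted p = 1.3e-177). Cdc20 had 222, 344 and 243 CPM in cycling barcodes, against 1.42, 0.809 and 2.02 (7.36 ± 0.19). Aurkb, the kinase of the passenger complex, had 50.3, 42.5 and 42.7 CPM in cycling barcodes and no UMI in the comparison sums, and was at least 510-fold higher, against a floor of 3 counts over the class. Nuf2, of the kinetochore's microtubule-binding complex, was at least 412-fold higher in the same way. Cenpa, the histone variant of centromeres, had 268, 391 and 283 CPM in cycling barcodes, against 4.56, 4.59 and 6.34 (5.81 ± 0.16). Mouse 2 was the highest of the cycling sums for Cdc20 and Cenpa, with 10 barcodes.

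Among motors and spindle proteins, Hmmr, which binds spindle poles, had 107, 175 and 156 CPM in cycling barcodes, against 0.285, 0.135 and 0.176 (9.16 ± 0.30). Racgap1, which acts in cytokinesis, had 119, 165 and 85.3 CPM, against 0.214, 0.809 and 0.352 (8.10 ± 0.30). Nusap1 and Ccna2, cyclin A2, rose by 8.83 ± 0.41 and 8.59 ± 0.40. Other members of these lists had many UMIs in comparison barcodes too. Ube2s, which extends ubiquitin chains for the anaphase-promoting complex, had 1190, 1250 and 1296 CPM in cycling barcodes, against 315, 332 and 378 (1.82 ± 0.12). Tubb5, a beta-tubulin, had 2504, 2457 and 2443 CPM, against 257, 245 and 254 (3.24 ± 0.12), and Stmn1, which loosens microtubules, 2007, 2401 and 2123 CPM, against 146, 126 and 128 (3.97 ± 0.13). In condensins and chromatin proteins 21 of 22 genes rose (median 2.39). Hmgb2, an abundant chromatin protein, had 2371, 3023 and 2431 CPM in cycling barcodes, against 312, 373 and 379, and Smc2, the core of condensin, rose by 4.80 ± 0.16.

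**Figure D3:**
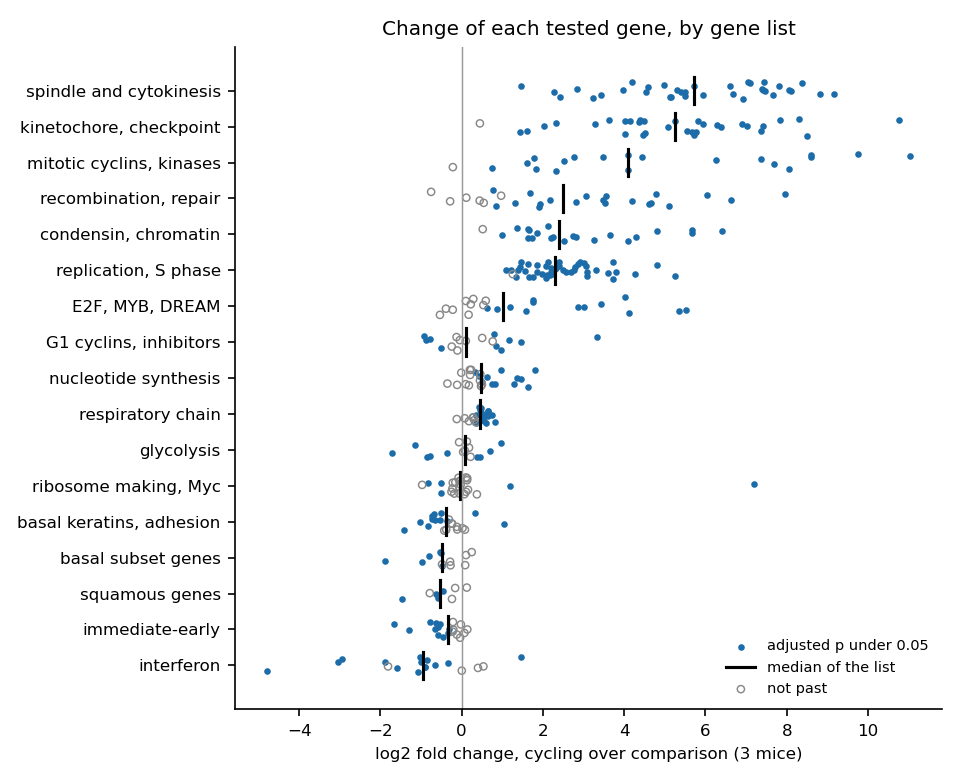
Log2 fold change, cycling over comparison barcodes within 3 mice (x axis), of each tested gene of the gene lists named at the left, with filled points for adjusted p under 0.05 in edgeR, open points for the others and a black bar at the list's median. Medians run from 5.71 in spindle genes through 2.30 in replication genes and 0.46 in the respiratory chain to −0.95 in interferon genes.

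Genes outside the lists of division, regulation and repair rose as steeply in places. By rule, the largest increases were of Pimreg, Pbk, Esco2, Cdkn3, Iqgap3, Hist1h2ap, Melk, Lockd, Hist1h1b and Shcbp1. Pbk, a mitotic kinase, had 130, 151 and 115 CPM in cycling barcodes, against 0.499, 0.135 and 0.176 (8.60 ± 0.30). Pimreg, an interactor of a clathrin assembly protein, had 42.7, 75.5 and 38.7 CPM in cycling barcodes and 1 UMI in the comparison sums, a ratio of 1465 with a counting interval of 256 to 58509. Esco2, which acetylates cohesin in S phase, rose by 7.93 ± 0.41. Lockd, a noncoding RNA made downstream of Cdkn1b, had 174, 283 and 169 CPM, against 1.35, 1.48 and 1.14 (7.16 ± 0.21), and Cdkn1b itself 42.7, 51.9 and 30.7 CPM, against 20.9, 23.2 and 16.6 (0.98 ± 0.23). The histone genes Hist1h2ap and Hist1h1b had 420, 420 and 307 and 184, 241 and 187 CPM in cycling barcodes, against at most 2.99 in any comparison sum. Their mRNAs mostly end without a poly(A) tail, and histone H2A genes are near-identical copies among which reads can be split, so these levels are uncertain.

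In recombination and repair 20 of 26 genes rose and 6 did not pass (median 2.49). Pclaf, a partner of Pcna at stalled forks, stood out with 500.3, 424 and 356 CPM in cycling barcodes, against 2.21, 1.21 and 1.41 (7.95 ± 0.18). Bard1, the partner of Brca1, rose by 6.04 ± 0.60. Sensors that all cells carry rose less, with Rad50 at 0.84 ± 0.23 and Parp1 at 0.78 ± 0.26.

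Of 22 genes of the E2F, DREAM, MYB and NF-Y group, 13 rose and 9 did not pass (median 1.03). E2f1, an activator of S-phase genes, had 12.3, 23.6 and 17.3 CPM in cycling barcodes, against 1.5, 2.29 and 2.29 (3.01 ± 0.43), and its partner Tfdp1 had 78.8, 80.2 and 62.7 CPM, against 21.6, 20.6 and 20.5 (1.76 ± 0.19). The repressors E2f7 and E2f8, which E2F itself switches on, rose by 4.03 ± 0.68 and 5.53 ± 0.48. Activators of the mitotic wave rose in the same range, Foxm1 by 5.34 ± 0.41 and Mybl2 by 4.12 ± 0.50. Among the pocket proteins, which hold E2F factors back, Rbl1 had 14.2, 14.2 and 10.7 CPM in cycling barcodes, against 1.07, 1.62 and 1.06 (3.44 ± 0.48), while Rb1 (0.59 ± 0.34) and Rbl2 (−0.39 ± 0.45) did not pass. E2f4 and E2f5, the E2F factors of resting cells, had fold changes of 0.29 ± 0.31 and −0.54 ± 0.40 and did not pass either.

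G1 regulators moved both ways, with 6 of 17 genes higher, 4 lower and a median of 0.10. Without myoepithelial barcodes 6 of 17 were higher and 5 lower. Of the D cyclins, which start the cycle from growth signals, Ccnd1 and Ccnd2 were lower. Ccnd1 had 35.1, 23.6 and 30.7 CPM in cycling barcodes, against 56.3, 54.0 and 60.3 (−0.87 ± 0.20, adjusted p = 0.00018), and Ccnd2 had 86.4, 42.5 and 72.0 CPM, against 132, 120 and 153 (−0.93 ± 0.15). Their kinase Cdk4 rose, with 325, 354 and 289 CPM in cycling barcodes against 189, 170 and 159 (0.84 ± 0.12), and so did Cdk2 (1.17 ± 0.29), while Cdk6 (−0.13 ± 0.18) and Ccnd3 (0.51 ± 0.29) did not pass. In none of Ccnd1, Ccnd2 and Cdk4 did the sums of the classes overlap.

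Inhibitors of these kinases were higher in cycling barcodes for 4 genes. Cdkn2c, which blocks Cdk4 and Cdk6, had 19.9, 37.7 and 37.3 CPM in cycling barcodes, against 2.56, 2.83 and 3.08 (3.34 ± 0.36, adjusted p = 7.9e-19). Cdkn2d of the same family rose by 1.46 ± 0.32, Cdkn1c by 0.79 ± 0.16 and Cdkn1b as given above. The sums of Cdkn1c overlapped, and mouse 2 had 56.6 CPM in cycling and 59.0 in comparison barcodes. Cdkn1a, the inhibitor that p53 induces, had 380, 278 and 360 CPM in cycling barcodes and 379, 354 and 457 in comparison barcodes. It did not pass (−0.24 ± 0.12, adjusted p = 0.14), and its sums overlapped. Without myoepithelial barcodes Cdkn1a passed and was lower (−0.345, adjusted p = 0.022). Against comparison barcodes of at least 22491 UMIs it did not pass (−0.294, adjusted p = 0.077), so its call depends on the comparison. Btg1 and Btg2, which slow growth, were lower, at −0.51 ± 0.12 and −0.78 ± 0.12.

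**Figure D4:**
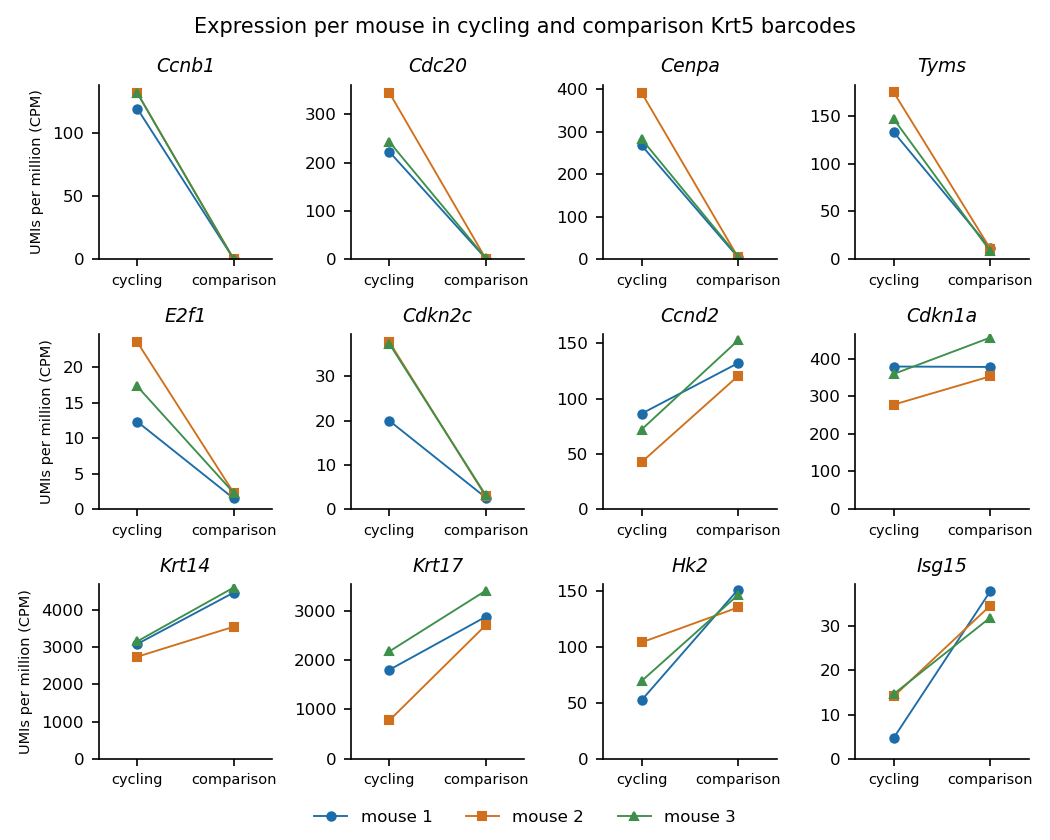
CPM of 12 genes (y axis of each panel, linear and from 0) in the cycling barcodes (left) and comparison barcodes (right) of mice 1 to 3, with a line joining the sums of a mouse. Ccnb1, Cdc20, Cenpa, Tyms, E2f1 and Cdkn2c were higher in cycling barcodes of each mouse, Ccnd2, Krt14, Krt17, Hk2 and Isg15 lower in each, and Cdkn1a was level in mouse 1.

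Changes of metabolic genes were mostly small, and the counts stand against 13.4% higher and 9.99% lower among all genes tested. Of 24 genes of nucleotide and one-carbon metabolism 12 rose (median 0.47). Psat1 and Psph, of serine synthesis, had the largest increases, with Psph at 76.9, 61.3 and 68.0 CPM in cycling barcodes against 22.3, 17.1 and 25 (1.64 ± 0.19). In the respiratory chain 15 of 22 genes rose by small amounts (median 0.46), such as Atp5o, a subunit of ATP synthase, with 399, 547 and 351 CPM against 227, 235 and 224 (0.82 ± 0.12). In glycolysis 4 of 15 genes rose, 5 fell and 6 did not pass (median 0.08). The glucose transporter Slc2a1 fell by 0.85 ± 0.15 on the log2 scale, the first kinase Hk2 had 52.2, 104 and 69.3 CPM in cycling barcodes, against 151, 135 and 146 (−1.16 ± 0.16), and Aldoa, aldolase A, had 78.8, 146 and 101 CPM, against 316, 306 and 328 (−1.72 ± 0.14). Among the higher genes, Tpi1, triosephosphate isomerase, had 193, 236 and 185 CPM in cycling barcodes, against 101, 95.0 and 98.8 (0.97 ± 0.13), and Gapdh had 1556, 1585 and 1428 CPM, against 958, 867 and 910. Without myoepithelial barcodes 3 of 15 rose and 4 fell. Of 24 genes of ribosome making and the Myc network 2 rose and 3 fell (median −0.05). Myc itself had 189, 316 and 300 CPM in cycling barcodes, against 300, 367 and 411 (−0.52 ± 0.12), its partner Max was lower (−0.84 ± 0.20), and Mxd3, a Max partner of dividing cells, was higher (7.20 ± 0.48).

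Part of the genes of basal identity were lower in cycling barcodes. Of 21 keratin and adhesion genes 10 fell and 2 rose (median −0.38), where 9.99% of all genes tested were lower and 13.4% higher. Krt14, with the CPM given above, fell by 0.54 ± 0.12 on the log2 scale, and the classes did not overlap. Krt17, a keratin of activated epithelium, had 1801, 778 and 2173 CPM in cycling barcodes, against 2874, 2706 and 3403 (−1.02 ± 0.12), with mouse 2 lowest. Trp63, the master factor of basal epithelium, had 24.7, 28.3 and 20 CPM in cycling barcodes, against 43.5, 44.1 and 28.9, and Dst, which ties keratin to the basement membrane, fell by 0.83 ± 0.13. Itgb4, the hemidesmosomal integrin, did not pass (0.08 ± 0.14), and Krt15 (0.34 ± 0.12) and Bcam, a laminin receptor, rose. Krt15 did not pass without myoepithelial barcodes (0.19, adjusted p = 0.24) or against comparison barcodes of at least 22491 UMIs (0.24, adjusted p = 0.18). Bcam had 150, 226 and 149 CPM in cycling barcodes, against 73.4, 90.0 and 77.9 (1.03 ± 0.14).

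Genes that mark subsets of these basal cells fell in 6 of 12 cases and rose in none (median −0.49). Of all genes tested, 9.99% were lower and 13.4% higher. Cycling sums lay below comparison sums without overlap in 1 of the 12, against 16.8% of all genes. Without mouse 2, 4 of the 12 fell, where 949 of 11297 genes tested were lower. Ifi202b, an interferon-inducible DNA sensor, had 29.4, 4.72 and 85.3 CPM in cycling barcodes, against 164, 73.8 and 209 (−1.90 ± 0.17). Within each mouse it was lower, although the ranges of the classes overlapped. Krt6a (−0.99 ± 0.23) and Krt16 (−0.81 ± 0.19), stress keratins, and Snai2 (−0.50 ± 0.14) were also lower, while Wnt10a (0.09 ± 0.16), Lef1 (−0.27 ± 0.27), Notum (−0.28 ± 0.21), Fhl2 (0.25 ± 0.13) and Cd74 (0.11 ± 0.13) did not pass. Of 8 squamous genes 4 fell and none rose (median −0.53), with Sprr1a, of the cornified envelope, at 28.5, 33.0 and 72.0 CPM in cycling barcodes against 115, 103 and 138 (−1.47 ± 0.17). Sfn, which binds cell cycle proteins, fell by 0.47 ± 0.12.

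Among signalling lists few genes passed, where 13.4% of all genes tested were higher and 9.99% lower. Counts near those shares, as in the Wnt and p53 lists, are no result about a pathway. In the Notch list 3 of 13 fell (median −0.37), with the target Hes1 at 968, 1014 and 1220 CPM in cycling barcodes against 1414, 1115 and 1557 (−0.41 ± 0.12). Without myoepithelial barcodes 1 of 13 fell. Of 26 Wnt genes 4 fell and 1 rose (median −0.16). Nkd1, a Wnt feedback gene, fell by 2.39 ± 0.51, but with myoepithelial barcodes left out of the comparison it was at −0.44 and did not pass (adjusted p = 0.69). Of 15 genes of the EGF receptor group 4 fell and 1 rose (median −0.22). The ligand Hbegf (−0.60 ± 0.12) and the receptor Egfr (−0.64 ± 0.21) were lower, and the ligand Areg was higher (1.30 ± 0.39). The sums of Egfr overlapped, with 42.5 CPM in cycling and 39.7 in comparison barcodes of mouse 2. Among 14 YAP targets 3 fell and none rose (median −0.32). In the p53 list Trp53 (0.75 ± 0.13) and Bax (0.60 ± 0.16) were higher, and Phlda3, Plk2 and Perp lower, of 20 tested (median −0.22). Of 6 MHC class II genes H2-Ab1 alone passed, and was higher (0.58 ± 0.19), but it did not pass without myoepithelial barcodes (adjusted p = 0.068).

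Interferon genes were lower in 13 of 18 tested and higher in 1, with a median of −0.95, where 9.99% of all genes tested were lower and 13.4% higher. Isg15, a ubiquitin-like modifier, had 4.75, 14.2 and 14.7 CPM in cycling barcodes, against 37.9, 34.7 and 32.0 (−1.89 ± 0.30, adjusted p = 1.2e-08). Ifit1, which binds foreign RNA, had 0, 0 and 1.33 CPM, against 18.5, 17.1 and 7.40, from 1 UMI in cycling barcodes, a ratio of 28.9 with a counting interval of 5.17 to 1145. Psmb9, an immunoproteasome subunit, went the other way, with 73.1, 42.5 and 69.3 CPM in cycling barcodes against 26.0, 22.3 and 21.9 (1.46 ± 0.19). Without mouse 2, 7 genes of the list fell and 2 rose, where 949 of 11297 genes tested were lower and 1286 higher. Against comparison barcodes of at least 22491 UMIs, 4 of 11 fell and 2 rose, where 14.7% of all genes tested were higher and 10.3% lower. Of 16 NF-kB and chemokine genes 5 fell and none rose (median −0.19), with Cxcl2 at 29.4, 14.2 and 30.7 CPM in cycling barcodes, against 63.4, 44.1 and 82.1 (−1.30 ± 0.21). Without mouse 2, 2 of these 16 fell, and 2 of 14 against the deep comparison barcodes, where Cxcl2 did not pass (−0.10, adjusted p = 0.83). Both counts are near the shares over all genes tested and are no result about the list.

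Of 19 immediate-early genes, which respond to growth signals and to handling of cells, 11 fell and none rose (median −0.34). Of all genes tested, 9.99% were lower and 13.4% higher. Cycling sums lay below comparison sums without overlap in 6 of the 19, against 16.8% of all genes. Fos had 209, 443 and 207 CPM in cycling barcodes, against 633, 765 and 499 (−1.30 ± 0.12), and Socs3, a brake on cytokine signals, had 56.0, 123 and 24.0 CPM, against 177, 183 and 141 (−1.67 ± 0.17). Jun, by contrast, had 1334, 1906 and 1359 CPM in cycling barcodes, against 1490, 1584 and 1348, and did not pass (−0.02 ± 0.12). Without myoepithelial barcodes the falls of Fos and Socs3 were smaller, at −0.47 and −0.71, and 9 genes of the list fell and 2 rose. In that comparison 10.9% of all genes tested were lower and 12.9% higher.

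Genes of contraction led the lower side. The largest decreases by rule were of Pcp4, Tagln, Ecrg4, Myl9, Acta2, Myh11, Cnn1, Mgll, Tpm2 and Lcn2, most of them genes of smooth muscle and myoepithelium. Acta2, smooth muscle actin, had 8.54, 14.2 and 6.67 CPM in cycling barcodes, against 724, 329 and 476 in comparison barcodes. All 8 myoepithelial markers tested fell (median −5.61). Counting Acta2, Tagln, Myh11, Cnn1 and Myl9 together, no member had more than 4 UMIs and 58 of 85 had none, whereas 236 of 3126 comparison barcodes (7.55%) had 5 or more. Of all 271 Krt5 barcodes with at least 5 such UMIs none was cycling, which allows a share of up to 1.11% by 3 counts of the total (exact interval 0 to 1.35), at a median of 9739 UMIs, against 85 of 3549 with fewer (2.40%, exact interval 1.92 to 2.95), at 13787. By mouse it was 0 of 122, 0 of 33 and 0 of 74. By these counts the comparison class mixed myoepithelial with other basal barcodes. With comparison barcodes of 5 or more such UMIs left out, Acta2 was at 0.31 (adjusted p = 0.69) and Tagln at 0.18 (adjusted p = 0.89). Both genes are among the 5 that this filter counts, so their loss of change was set by the filter and is no separate evidence. In that comparison 1332 genes were higher and 1127 lower, or 12.9% and 10.9% of those tested, and Lcn2, an iron-binding defence protein, was lower (−1.94, adjusted p = 5.1e-06).

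The whole-epithelium libraries, on which the gate was not set, held few Krt5 barcodes. In irradiated glands 0 of 66 passed the gate, which allows a share of up to 4.55% by 3 counts of the total (exact interval 0 to 5.44), and in untreated glands 4 of 100 did (exact interval 1.10 to 9.93). By mouse the irradiated shares were 0 of 8, 0 of 37 and 0 of 9, and the untreated shares 1 of 13, 0 of 25 and 2 of 19, so untreated mouse 2 overlapped the irradiated mice. The mean was 0 ± 0% in irradiated and 6.07 ± 5.45% in untreated mice (SD, n = 3 each), with an exact two-sided permutation p of 0.4, where 3 mice against 3 cannot go below 0.1. With hashtag UMIs normalized per barcode instead of per hashtag, the mean was 0 ± 0% in irradiated and 8.02 ± 2.94% in untreated mice, without overlap, and the p was 0.1, the smallest this design allows. Untreated mouse 2 then held 1 cycling barcode instead of 0. That normalization gave 81 untreated and 4 irradiated barcodes to another mouse. It left 2058 untreated and 1191 irradiated barcodes without a call, against 1778 and 295, so the shares by mouse depend on the calls. Among Krt5-negative barcodes the gate was passed by 10 of 2563 in irradiated and 8 of 3993 in untreated glands. Barcodes past the filters held a median of 19488 UMIs in irradiated and 12921 in untreated glands, and a gate on UMIs favours deep barcodes. The difference was not tested.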

How the data were processed

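Per the submitters' processing notes, the authors used Cell Ranger 6.1.2 and the mm10 genome for the deposited UMI counts, and per the file headers each value is a raw count of UMIs per gene, or per hashtag antibody, and barcode. Mice were called here with HTODemux (Seurat 5.3.0, positive quantile 0.99, 5 starting clusters), which in the basal sort gave 3189 singlets, 231 doublets and 998 barcodes with no call. Hashtag UMIs were normalized per hashtag. Normalization per barcode was run first and gave 3075 singlets, and the choice was made after both sets of calls had been seen, for being closer to an earlier description of these data. The same animals give both classes, which pairs the sums: deviations of the 2 sums of a mouse from the class means correlated at 0.16, 0.19 and 0.31. UMIs were therefore summed per mouse and class (6 sums) and tested with edgeR 4.0.16 (R 4.3.3, filterByExpr, TMM, mouse as a block), with Benjamini-Hochberg adjustment over all tested genes. Libraries held 59207148 (basal sort), 58485558 (irradiated) and 137835128 UMIs (untreated epithelium). CPM are UMIs scaled to 1e6 per sum. The ± beside a log2 fold change is an approximate standard error, the change divided by the square root of the F statistic of its test. It can be too small where a class holds few UMIs, such as the 4 comparison UMIs of Ccnb1. Scrublet (scanpy 1.11.5) gave doublet scores. No doublet within a mouse was removed, except in an alternative.

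Named genes were the 10 largest changes in each direction (threshold passed, sums without overlap, at least 20 CPM on average), the 10 largest increases outside the division, regulator and repair lists, the 4 largest changes and 4 highest levels of each list, and all G1, E2F and subset genes. Some genes that this rule names are not reported here. The members and lists were chosen with earlier results of these data known. The fit was tested on simulated counts. Alternatives covered normalization, tool, filter, gate, thinning to 5000 UMIs, deep comparison barcodes, mitochondrial limit, hashtag rule, Scrublet and each mouse left out; those without myoepithelial barcodes, without the 4 tubulin and stathmin genes with library sizes only and with hashtags normalized per barcode were added after seeing the data. Promoters came from RefSeq tables (GRCm38.p6), 1 start per symbol of 32851 entries.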

Additional observations from a re-analysis of the deposited data

How the results depend on the processing

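Against 1410 higher and 1053 lower genes, DESeq2 called 799 and 457, thinning barcodes of at least 5000 UMIs to that depth left 439 and 388, and comparison barcodes of at least 22491 UMIs left 971 and 682 of fewer genes tested. Leaving out 1 mouse left 733 to 1286 higher and 543 to 949 lower genes, the fewest without mouse 1, and 646 lower without mouse 3. With no replicate block 1209 genes were higher and 732 lower. Without a filter on low counts the median of all genes moved by −0.32 on the log2 scale and 1048 genes were higher and 1207 lower. The cycling share of Krt5 barcodes, 2.62% over mice, was 2.29 to 3.20% with a mouse left out and 1.30% after thinning. The share of members with more mitotic than S-phase UMIs, 100%, was 84.7% over mice without 4 tubulin and stathmin genes. The irradiated minus untreated share, −6.07 points, ran from −9.11 to −3.85 with a mouse left out, was −2.22 after thinning and −16.7 with mice called by hashtag share, with no p under 0.2. With hashtag UMIs normalized per barcode it was −8.02 (exact permutation p = 0.1), and 1270 genes were higher and 1002 lower.

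Of 3837 values of 232 named genes under alternatives, 3526 kept their direction and side of the threshold, 293 lost the call and 16 gained one. The other 2, of Acta2 (0.31, adjusted p = 0.69) and Tagln (0.18, adjusted p = 0.89) without myoepithelial barcodes, reversed direction. The cycling sum of mouse 2 rests on 10 barcodes, which limits genes of low level. The cause of these shifts was not tested beyond what each alternative leaves out.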
